A study of Mus musculus with 2 samples.

Results

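The genes described here are 38 mouse genes of the germline and of meiosis, taken as a list of names and looked up among the 21938 protein-coding genes of GENCODE vM21 on chromosomes 1 to 19, X and Y. All 38 were found. They were set against the places where EHMT2 (G9a), the histone methyltransferase that deposits H3K9me2, was mapped in mouse embryonic stem cells (mESCs). For each gene, EHMT2 summits were counted at the promoter, in the gene body and in the gene with 50 kb on each side, and the distance from the transcription start site (TSS) to the nearest summit was taken. The list itself uses no EHMT2 value, but it was chosen with earlier results of these data known.

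The map came from ChIP-exo, in which exonuclease trims immunoprecipitated DNA towards the crosslinked protein. Both libraries were replicates of 1 group: ESCs of the EHMT2-dTAG-mcherry line, of BL6/129 hybrid strain, in which a degradation tag with HA epitopes is fused to the end of EHMT2 and mCherry, made from the same transcript as a separate protein, reports its transcription. They were kept with DMSO for 24 hours without the degrader, so that EHMT2 was present, were grown on feeder cells in serum and LIF, and were precipitated with an antibody against HA. Libraries from cells lacking EHMT2 or from a control antibody were not analysed here. The authors pooled both libraries before calling peaks, so each value below is a single value with no replicate error, and intervals are 95% intervals of counting error only. A list of peaks holds no expression values, so neither the cell type nor the activity of a gene could be checked in it.

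Many germline genes are silent in most somatic cells and in mESCs, and many have CpG-rich promoters that carry DNA methylation or H3K9 methylation there. A variant Polycomb complex, PRC1.6, is known to be brought to many germline promoters by the DNA-binding proteins MGA and MAX, which recognise the E-box CACGTG, and by E2F6, which recognises sites with the core TCCCGC. EHMT2 is known to be required, with its partner EHMT1, for the silencing of a number of germline genes in mESCs.

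The list analysed here held 12554 peaks on these chromosomes. Fold enrichment is the number of fragments at the summit over the local background, each with 1 added, and its median over all peaks was 5.23, at a median of 8 fragments. These are small numbers, and a peak of 4 to 6 fragments rests on few molecules. Reads with several equally good sites had been written at 1 site drawn at random, so for each summit the exact copies of its 50 bases in the assembly were counted. A summit sequence with 1 copy is unique, and a fragment on a repeated one may come from another copy.

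Of the 38 genes, 2 had a summit at the promoter, from 2.5 kb upstream to 0.5 kb downstream of the TSS, and the other 36 had none. The share was 5.26% (1.46 to 17.3, Wilson interval), beside 328 of 21900 other protein-coding genes, or 1.5%, whose share lies inside that interval. The 2 genes were Rnf17, which encodes a Tudor domain protein of germ cells, and Sycp2, which encodes a protein of the lateral elements of the synaptonemal complex. Their summit sequences are printed because these are the only members with EHMT2 at the promoter, with CpG dinucleotides in capitals, in mm10 and 5′ to 3′ along the gene.
Rnf17, chr14:56402691-56402740, plus strand: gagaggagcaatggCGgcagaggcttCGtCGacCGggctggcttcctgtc
Sycp2, chr2:178407431-178407480, minus strand: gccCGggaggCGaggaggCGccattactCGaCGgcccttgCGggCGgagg
The Rnf17 sequence held 4 CpG and the Sycp2 sequence 7, and each occurred once in the assembly.

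The Rnf17 summit lay 135 bp downstream of the 5′ end of the gene (chr14:56402581-56525032, plus strand), in an exon and 16 bp downstream of another annotated Rnf17 start. Its fold enrichment was 5.18 from 6 fragments, with a −log10 q of 3.91. No base of the peak was soft-masked, which means written in lower case in the assembly and read here as repeat. The peak also held a CACGTG, at chr14:56402667-56402672 and 86 bp after the gene's 5′ end. The Sycp2 summit lay 229 bp downstream of the 5′ end (chr2:178345293-178407685, minus strand), in an intron and 34 bp upstream of another Sycp2 start. Its fold enrichment was 4.95 from 6 fragments, with a −log10 q of 3.48. The GC content within 100 bp of that summit, 70.1%, was above that of 99.9% of all peaks. Both peaks were unique in sequence, with a fold near the median of the list. The whole Sycp2 peak of 192 bp holds 18 CpG and is printed to show how they are spread over it.
Sycp2 peak, chr2:178407299-178407490, minus strand: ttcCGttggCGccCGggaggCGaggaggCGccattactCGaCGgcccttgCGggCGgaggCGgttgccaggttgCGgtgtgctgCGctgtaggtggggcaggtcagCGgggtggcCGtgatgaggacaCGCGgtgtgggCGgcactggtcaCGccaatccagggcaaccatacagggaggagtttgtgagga

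Distances to the TSS spread from 0.135 kb at Rnf17 to 512 kb at Dazl, with a median of 98.3 kb (42.0 to 134.9, order-statistic interval). The median over the other protein-coding genes was 102.4 kb (100.4 to 104.3), inside the interval of the germline genes. The nearest summit lay upstream of the TSS for 18 genes and downstream for 20. After Rnf17 and Sycp2, the shortest distance was that of Stra8, induced by retinoic acid and required for entry into meiosis, at 1.38 kb. Fkbp6, an immunophilin needed for synapsis and for piRNA-based silencing, followed at 15950 bp, and Ddx4, the germ cell RNA helicase known as mouse Vasa, at 15994 bp. Stra8 missed the promoter window by its downstream bound and was closer to a summit than all but 1.43% of the other genes. At the far end, Dpep3, a dipeptidase of the testis, lay 393 kb away, Slc25a31, an ADP/ATP carrier of germ cells, 489 kb, and Dazl, an RNA-binding regulator of germ cell translation, farther from a summit than 95.3% of the other genes.

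**Figure D1:**
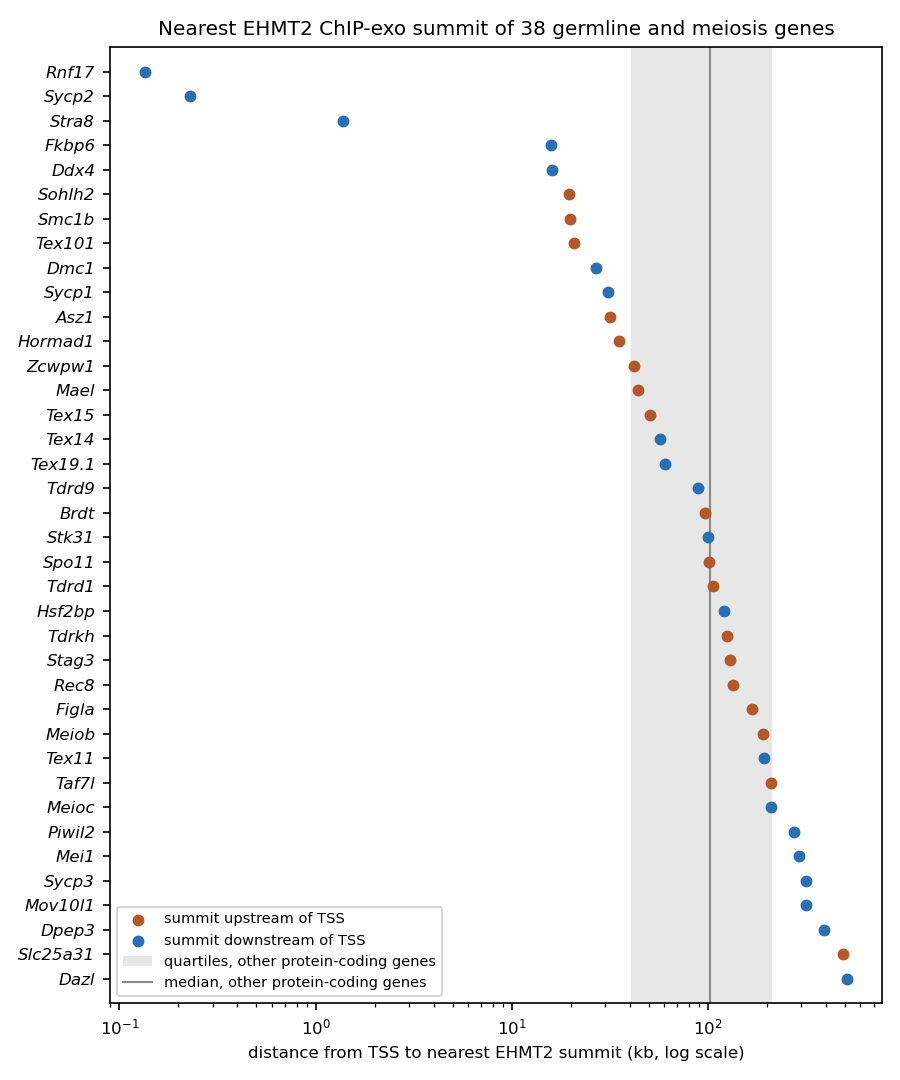
Distance from the TSS to the nearest EHMT2 summit (kb, log scale) for each of the 38 genes, ordered by distance; color gives the side of the TSS, and the grey band and line are the quartiles and the median of the other protein-coding genes. Rnf17, Sycp2 and Stra8 stand at 0.135, 0.229 and 1.38 kb, and the median of the germline genes, 98.3 kb, is close to the line at 102.4 kb.

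Summits in the gene body, from start to end of the gene record, were found in 11 of the 38 genes, 28.9% (17 to 44.8), beside 11.2% of the other protein-coding genes. The germline genes were longer, with a median length of 40.6 kb against 17.4 kb. Length enters the count, and per length the 13 summits in their bodies came to 6.72 per Mb (3.58 to 11.5, exact Poisson interval) against 3.70 per Mb (3.58 to 3.82) in the bodies of other genes. The lower bound of the first interval reached the second. Of the 13 summits, 12 were intronic and 1, at the Rnf17 start, was exonic. With peaks held to a q-value of at most 0.001 the count was 6 genes, or 15.8% (7.44 to 30.4), beside 7.42% of other genes, and with unique summits alone it was 5, or 13.2% (5.75 to 27.3), beside 4.76%.

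Among regulators of germ cells, Stra8 and Ddx4 held a summit in the body. The Stra8 summit (chr6:34921406-34921644) was intronic and 529 bp downstream of an alternative Stra8 start, with a fold enrichment of 6.57 from 8 fragments and 3 copies of its sequence. It lay in a tandem array with a period of 31 bp that covered 87.0% of the peak. Whether the other copies of this summit sequence lie in the same array was not tested. The Ddx4 summit (chr13:112636422-112636576) was intronic too, with a fold enrichment of 5.30 from 6 fragments, 1 copy, and an array with a period of 11 bp over 68.4% of the peak. Both peaks are printed, along with an intronic Rnf17 peak (fold enrichment 5.16 from 6 fragments) with an array of period 20 bp over 63.8% of its length and another of period 14 bp over a further 29.5%, because they show short units repeated inside unique or nearly unique summit sequence. Capitals mark 1 stretch as long as the period, where the leading run of at least 20 bases that recur exactly a period further begins, and the units of an array differ at some bases.
Stra8, chr6:34921406-34921644, plus strand: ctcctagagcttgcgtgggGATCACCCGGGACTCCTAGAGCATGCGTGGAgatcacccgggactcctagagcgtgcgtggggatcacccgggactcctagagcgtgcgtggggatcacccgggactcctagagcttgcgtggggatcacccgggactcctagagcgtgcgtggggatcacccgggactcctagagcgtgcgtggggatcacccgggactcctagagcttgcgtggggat
Ddx4, chr13:112636422-112636576, minus strand: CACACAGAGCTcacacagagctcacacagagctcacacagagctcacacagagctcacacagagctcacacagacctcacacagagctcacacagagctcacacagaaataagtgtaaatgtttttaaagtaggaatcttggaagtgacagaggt
Rnf17, chr14:56474020-56474168, plus strand: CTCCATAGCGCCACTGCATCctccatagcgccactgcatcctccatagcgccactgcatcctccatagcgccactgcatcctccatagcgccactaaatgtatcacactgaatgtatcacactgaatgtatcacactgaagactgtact
The other regulators were Meioc, a regulator of meiotic transcripts, Sohlh2 and Figla, transcription factors of spermatogonia and oocytes, Taf7l, a germ cell variant of a TFIID subunit, Brdt, a testis bromodomain protein, and Dazl. Sohlh2 had its nearest summit 19.6 kb upstream, inside Ccdc169, with a fold enrichment of 5.11 from 6 fragments on sequence with 1042 copies. Figla, Taf7l, Meioc and Dazl had none within 100 kb of the TSS, and Brdt had one at 96.4 kb.

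Of 8 genes of the chromosome axis, cohesin and synapsis, 4 had a body summit (50%, 21.5 to 78.5, beside 11.2% of other genes). This was the group of members with the highest share, and in each other group, of 4 to 10 genes, it was 20% or 25%. Within 50 kb, 5 of the 8 axis, cohesin and synapsis genes had a summit (62.5%, 30.6 to 86.3, beside 37.6%). With unique summits alone, Sycp2 and Fkbp6 kept one in the body. The genes of this group had a median length of 45.2 kb, against 17.4 kb for other genes, and length enters the count. Their median distance was 33.1 kb, with an interval of 0.229 to 315 kb that holds the median of every other group of members. Sycp1, which encodes the transverse filament protein of the synaptonemal complex, had 3 peaks in the window, of fold enrichment 4.67, 3.58 and 3.68, and all stood on repeated sequence. Smc1b, a meiosis-specific cohesin subunit, had an intronic peak of fold enrichment 4.62 from 7 fragments and 762 copies, and a unique one upstream of 5.69 from 7 fragments. Fkbp6 had an intronic peak of 3.54 from 4 fragments and a GC content of 22.9%, above that of 0.0717% of all peaks. Sycp2 had a second peak (chr2:178448363-178448962), 41014 bp upstream and inside Cdh26, with a fold enrichment of 10.0 from 24 fragments, a value above 87.8% of all peaks. Hormad1, an axis protein, had a unique summit 35.2 kb upstream of 4.81 from 6 fragments, while Stag3 and Rec8, subunits of meiotic cohesin, and Sycp3, the partner of Sycp2, lay 130.4 kb, 135 kb and 315 kb from theirs.

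Among recombination genes, Tex11 and Dmc1 held a summit in the body. The Tex11 peak (chrX:100864911-100865871), in an intron 194 kb from the TSS of this gene required for crossing over, was the strongest of all, with a fold enrichment of 12.5 from 49 fragments and a −log10 q of 37.1. Its fold was above that of 95.8% of all peaks, its summit sequence had 1904 copies, and an open frame of 1000 codons or more outside annotated coding sequence lay 1955 bp away. Such long frames, of which the assembly held 5705, are the kind of sequence that transposable elements with large proteins carry. Dmc1, the meiotic strand-exchange recombinase, had an intronic peak of 3.77 from 4 fragments, on unique sequence. Spo11, which makes meiotic double-strand breaks, Mei1, needed for these breaks, Meiob, which binds single-stranded DNA at them, and Tex15 had no summit in the window, and Tex15 lay just outside it, at 50.8 kb. Hsf2bp, a partner of BRCA2, had a unique summit downstream at 3.52 from 4 fragments, and Zcwpw1, a reader of the histone marks at recombination sites, had a unique one 42.0 kb upstream of its TSS, 38 bp from a start of Tsc22d4, at 4.14 from 6 fragments.

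Among genes of the piRNA pathway and Tudor proteins, which silence transposable elements in germ cells, Rnf17 and Tdrd9 held a summit in the body. Tdrd9, a Tudor helicase, had an intronic peak (chr12:112060601-112060927) of fold enrichment 5.29 from 10 fragments with 472 copies, and a long frame 1384 bp away. Asz1, a mitochondrial scaffold of the pathway, had a peak 31.6 kb upstream of 6.48 from 10 fragments with 891 copies. Mael, a piRNA factor, had a unique peak 44.1 kb upstream, inside Ildr2, of 5.47 from 7 fragments. Stk31, a Tudor protein with a kinase domain, had a peak downstream of the gene of 4.42 from 8 fragments with 2 copies. Tdrkh and Tdrd1, Tudor partners of PIWI proteins, Piwil2, a PIWI protein, Mov10l1, a helicase of piRNA production, and Tex19.1, which acts against retrotransposons, had none in the window. Among the remaining genes, Tex14, needed for the bridges between germ cells, had an intronic peak of 4.17 from 6 fragments, 119 bp upstream of the U3 small nucleolar RNA gene Rnu3b4, and Tex101, a surface protein of sperm precursors, had a pair of peaks upstream, of 3.45 from 4 fragments and 4.81 from 6, both on repeated sequence. Slc25a31 and Dpep3 had none in the window. The summit sequences of the 3 peaks near long frames are printed because they show the repeated sequence these signals stand on.
Sycp2, chr2:178448674-178448723, minus strand: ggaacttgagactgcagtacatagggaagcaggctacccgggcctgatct
Tdrd9, chr12:112060638-112060687, plus strand: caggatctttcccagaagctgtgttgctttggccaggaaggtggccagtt
Tex11, chrX:100865562-100865611, minus strand: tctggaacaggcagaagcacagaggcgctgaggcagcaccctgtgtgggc

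**Figure D2:**
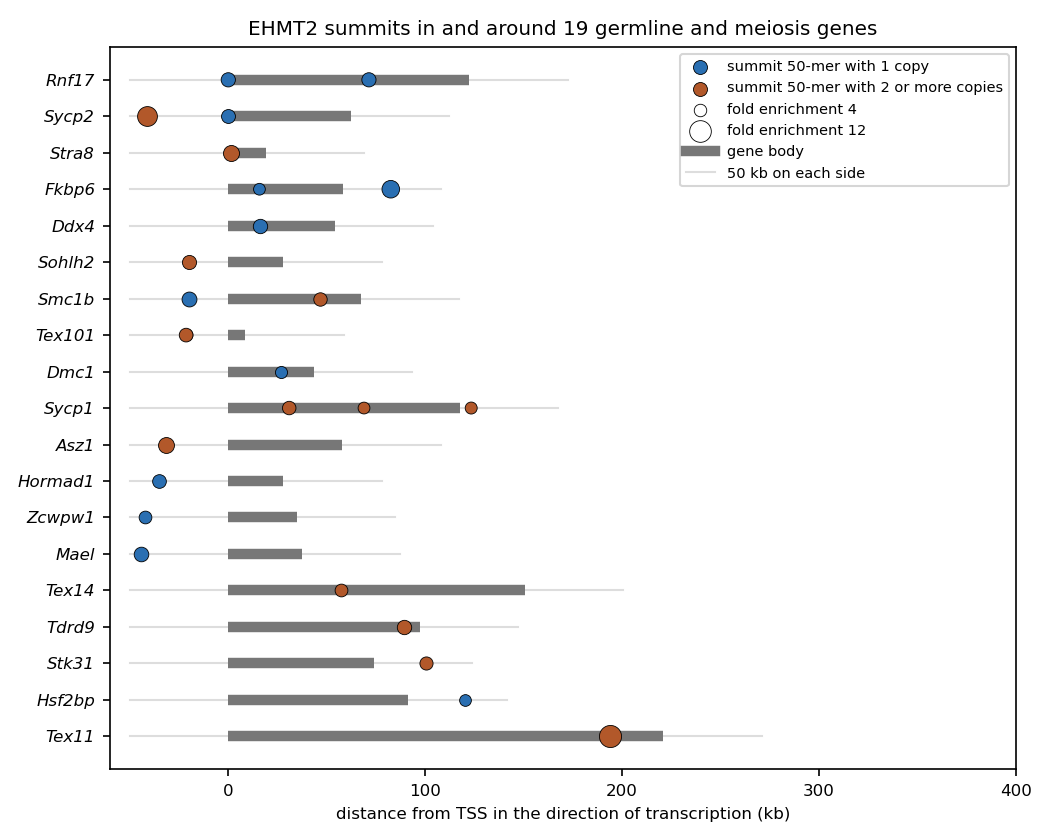
EHMT2 summits in and within 50 kb of the 19 genes that had any, by distance from the TSS in the direction of transcription (kb); the thick bar is the gene body, thin lines reach 50 kb on each side, circle size is fold enrichment, and color tells summit sequence with 1 copy from repeated sequence. Summits at the start of the bar appear for Rnf17 and Sycp2, and the circle at 194 kb in Tex11 is the largest, at 12.5. The pair of Tex101 peaks overlap in the plot.

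Within 50 kb, 19 of the 38 genes had a summit, 50% (34.8 to 65.2), beside 37.6% of the other protein-coding genes, a share inside the interval. The windows of the germline genes held 26 peaks, or 4.53 per Mb (2.96 to 6.64), against 4.09 per Mb (3.99 to 4.19) in the windows of other genes. With 100 kb on each side the direction turned, to 3.67 per Mb (2.56 to 5.11) against 4.24. Of the 19 genes, 13 had 1 peak, 5 had 2 and Sycp1 had 3. With unique summits alone, 10 genes, or 26.3% (15 to 42.0), had one within 50 kb, beside 15.6% of other genes.

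**Figure D3:**
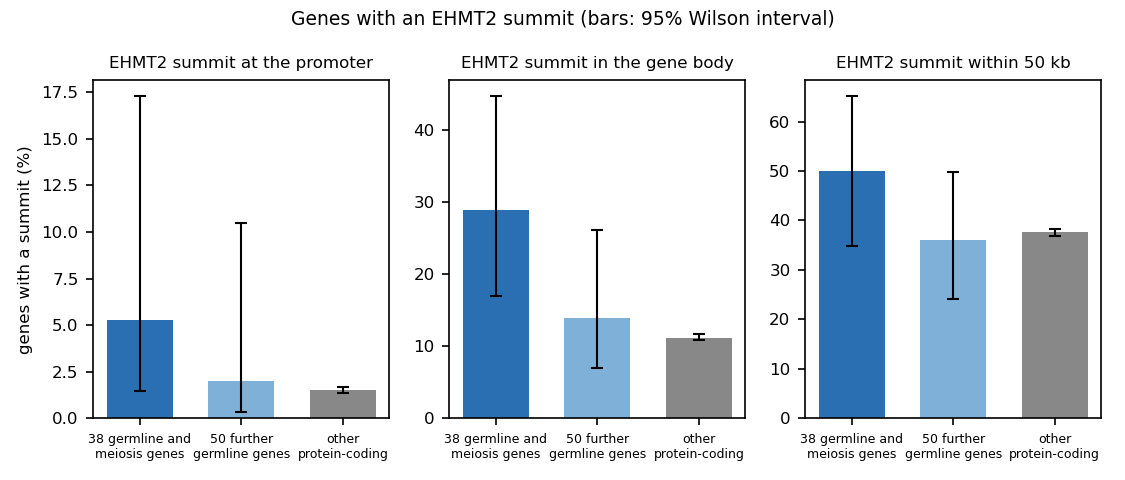
Share of genes (%) with an EHMT2 summit at the promoter, in the gene body and within 50 kb, for the germline and meiosis genes, further germline genes and other protein-coding genes; error bars are 95% Wilson intervals. The germline genes stand at 5.26%, 28.9% and 50%, beside 1.5%, 11.2% and 37.6% for the other protein-coding genes.

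The 26 peaks were of ordinary strength, with a median fold enrichment of 4.88 and 6 fragments, against 5.13 and 7 fragments for the 6816 peaks in the windows of other genes. The strongest by −log10 q after Tex11 were the upstream Sycp2 peak at 17.7, a unique peak downstream of Fkbp6 at 9.44 (fold enrichment 7.91 from 13 fragments, on a tandem array with a period of 30 bp), Asz1 at 6.35 and Stra8 at 6.34. A unique summit was found for 12 of 26 peaks, 46.2% (28.8 to 64.5), against 26.1% of peaks in the windows of other genes and 19% of all peaks. With the 100 bases around each summit in place of 50, the share was 53.8% (35.5 to 71.2) against 40.4%, which lies inside the interval. The median copy number was 2.5, against 94 and 354. Soft-masked bases made up 50% or more of 14 peaks (53.8%, against 72.1%), and 3 peaks (11.5%, against 25.8%) lay within 8 kb of a long frame. The windows themselves held only 4 long frames, or 0.698 per Mb, against 1.65 around other genes, with soft-masked shares of 31.8% and 32.1%. In the gene bodies the direction turned, with 3 long frames, or 1.55 per Mb, against 1.37. No interval was computed for these frame densities. Unique summits had a median of 5 fragments in the whole list, and the part of fragment number in this comparison was not tested.

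**Figure D4:**
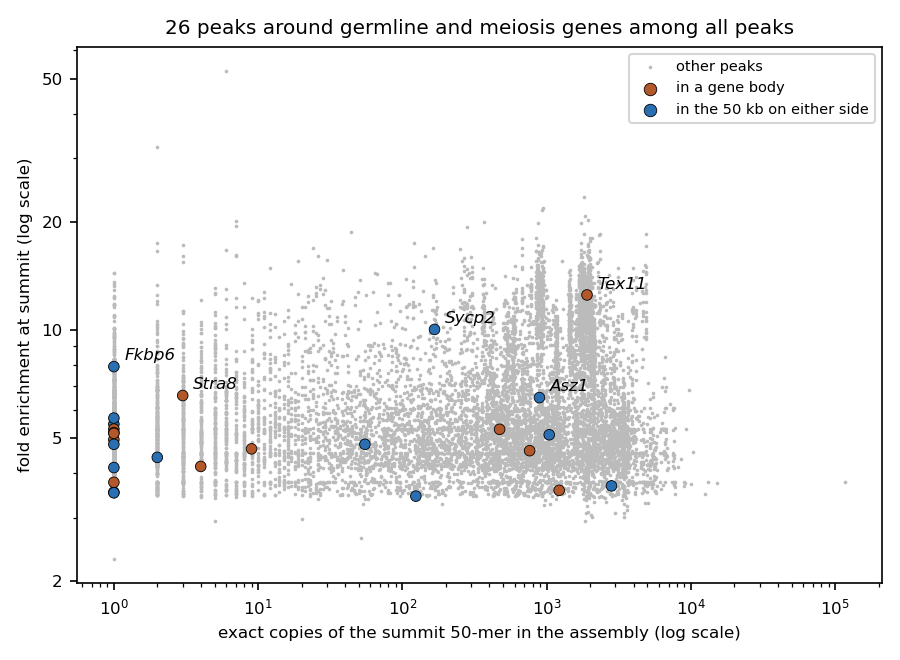
Fold enrichment at the summit (log scale) against exact copies of the summit's 50 bases in the assembly (log scale) for all peaks in grey and for the 26 peaks around the germline and meiosis genes in color, with the gene body told from the 50 kb on either side. The Tex11 peak stands at 12.5 with 1904 copies, and 12 of the 26 peaks stand at 1 copy.

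Promoter sequence was read from 250 bases before to 50 after each gene's 5′ end. The germline genes had a median CpG observed over expected ratio of 0.724 against 0.524 for other genes and 0.503 for 50 further germline genes, and 15 of 38 held CACGTG on either strand, 39.5% (25.6 to 55.3), against 7.70%. Their share of E-box promoters was also above the 9.15% found at other genes with an EHMT2 summit at the promoter. The core TCCCGC or its complement GCGGGA was in 12, 31.6% (19 to 47.5), against 24.0%, and 5 held both. Matches of both motifs were counted whether or not they overlapped. Of the 15 genes with CACGTG in this window, 0 had a promoter summit, which allows up to 20.4% (Wilson interval), beside 30 of 1686 other genes with the motif, or 1.78%. The Rnf17, Sycp2 and Stra8 promoters held neither motif in this window, but it ends before the CACGTG under the Rnf17 peak, and with 250 bases on each side the Rnf17 promoter counts among those with the motif. These 3 promoters had CpG ratios of 0.361, 0.383 and 0.369. The ratios do not describe the sequence under the peaks, because the window ends before the summits, 135, 229 and 1376 bp downstream. The Sycp2 window held 10 CpG and its peak of 192 bp held 18. The Stra8 window held 7 and its peak of 239 bp held 19. The Rnf17 window held 7 and the 50 bases of its summit held 4. CpG ratios of the peaks were not computed.

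**Figure D5:**
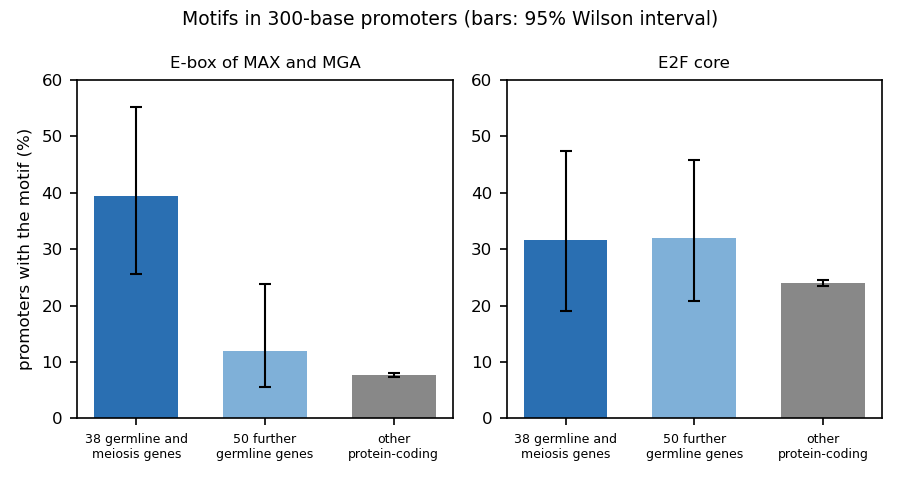
Share of promoters (%) holding CACGTG or TCCCGC in 300 bases around the 5′ end, for the 38 germline and meiosis genes, further germline genes and other protein-coding genes, with 95% Wilson intervals as error bars. CACGTG stands at 39.5% against 7.70%, while TCCCGC at 31.6% has an interval that holds the 24.0% of other genes. With 250 bases on each side, not drawn here, the TCCCGC interval of 37.3 to 67.5 does not hold the 36.1% of other genes.

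A further 50 germline and meiosis genes outside the list were counted in the same way. Of them 1 had a promoter summit (2%), 7 a summit in the body (14.0%) and 18 within 50 kb (36.0%), with a median distance of 96.6 kb. The promoter summit was at Msh4, a mismatch-repair family protein of crossing over, 878 bp from the TSS, with a fold enrichment of 4.48 from 6 fragments on unique sequence. CACGTG was in 12% of these promoters. Of 15 genes for PRC1.6 and its partners, 0 had a promoter summit (0 to 20.4%) and 1 had a summit in the body (6.67%, 1.19 to 29.8). That gene was Rnf2, a core ubiquitin ligase subunit of Polycomb, whose nearest summit to the TSS was 35.8 kb away. Within 50 kb, 2 had one (13.3%, 3.74 to 37.9), and the median distance was 211 kb. Of 14 genes for H3K9 and DNA methylation, 0 had a summit at the promoter or in the body (0 to 21.5% for each). Within 50 kb, 3 had one (21.4%, 7.57 to 47.6), nearest at Dnmt3l, a cofactor of the de novo DNA methyltransferases, at 24.6 kb. For both lists, each interval holds the share of other protein-coding genes, 1.5% at the promoter, 11.2% in the body and 37.6% within 50 kb.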

How the data were processed

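Both libraries were processed by the authors: adapters were trimmed with Trim Galore, reads were aligned to mm10 with STAR 2.7.10 in a mode that writes reads with several equally good sites once, at a random site, and duplicates were removed with Picard 2.26.0. Reads in ENCODE High Signal Regions were removed with SAMtools 1.14, and bedtools 2.30.0 converted the alignments to fragments. MACS2 2.2.6 called peaks without a control on the merged replicates, and peaks with q below 0.05 were kept. The deposited score is derived from the q-value, fold enrichment is deposited as a ratio, and the authors gave the p-value and q-value of each summit as −log10. The number of reads per library is not given in the sources used here, so the fragments at each summit stand for depth. The list is shorter than the ChIP-exo peak count the study gives, and whether it is the same list was not established. A gene without a summit here is one without a summit in this list.

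From these, the fragments at each summit were recovered from the fold and the p-value. Genes came from GENCODE vM21 and sequence from GRCm38.p6, which has mm10 coordinates. Python 3.11.15, pysam 0.24.0 and SciPy 1.17.1 were used, and counting was tested on simulated data, with 200 of 200 placed summits found. No test over samples was made, since the replicates were pooled. The members and lists were chosen with earlier results of these data known. Genes named with full values were those with a summit at the promoter or in the body, the 5 nearest and 3 farthest, and the 5 strongest peaks in the windows.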

Additional observations from a re-analysis of the deposited data

How the results depend on the processing

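No paired analysis was possible because the 2 libraries were pooled into 1 list before peak calling, and for the same reason no library could be left out. Values in parentheses are those of other protein-coding genes. Of 38 alternatives, 29 left the value within its interval or within 1.5 times its count. At a q-value of 0.001 or lower, genes with a summit in the body fell to 6, or 15.8% (7.42%), the median distance became 207.5 kb (176.7 kb) and the peaks in the windows 2.62 per Mb (2.57). With unique summits alone, 5 genes, or 13.2%, had a summit in the body (4.76%) and 10, or 26.3%, within 50 kb (15.6%), at a median distance of 245.7 kb (312.4 kb), and the peaks came to 2.09 per Mb in the windows and 3.10 per Mb in the bodies (1.07 for both). With peaks held to a q-value of at most 0.01 the windows held 3.49 peaks per Mb (3.50), and with 100 kb on each side 3.67 (4.24), against 4.53 (4.09) as reported. With 250 bases on each side of the 5′ end, the share of promoters with TCCCGC became 52.6% (36.1%). Its interval, 37.3 to 67.5, does not hold the share of other genes, unlike that of the shorter window. The promoter count stayed at 2, Rnf17 and Sycp2, under both q limits, with unique summits and with 1 kb on each side, and became 3, with Tdrd9, when any transcript start counted (2.40% of other genes). Peaks of 4 to 6 fragments limit what a single value can show.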

Other observations

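The upstream Sycp2 peak, inside Cdh26, and the intronic Smc1b peak, on different chromosomes, shared an exact stretch of 77 bases. Both peaks were 100% soft-masked, and the stretch is printed on the plus strand of both because it shows repeated sequence common to them. How often other pairs of peaks share such a stretch was not tested.
Sycp2 at chr2:178448434-178448510 and Smc1b at chr15:85085264-85085340: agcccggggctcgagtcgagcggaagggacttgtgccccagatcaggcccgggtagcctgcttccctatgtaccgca
By position the stretch lies outside the 50 bases of either summit, and its own copies were not counted. Part of its sequence recurs in the Sycp2 summit sequence printed above, whose last bases match it when read on the plus strand. The 50 bases of each summit had 167 copies at the Sycp2 peak and 762 at the Smc1b peak. Which copy the fragments came from was not tested. The peak upstream of Hormad1 was 2261 bp upstream of Ctss, a lysosomal protease, and an array with a period of 54 bp covered 86.7% of it. Tandem arrays were searched for at periods of 2 to 100 bp only, so arrays of longer units are not counted. Such arrays covered 50% or more of 6 of the 26 peaks (23.1%, interval 11.0 to 42.1), beside 12.4% of all other peaks. Among peaks under 50% soft-masked the shares were 33.3% (4 of 12, interval 13.8 to 60.9) and 37.6%.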
